A study of Mus musculus with 2 samples.

Results

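The cells described here are T cells of the Achilles tendon enthesis that carried transcripts of the delta or the first gamma chain constant gene of the T cell receptor, Trdc or Tcrg-C1. They were looked for as gamma-delta T cells. A barcode was taken when it had at least 300 genes, at most 20% mitochondrial UMIs (unique transcript molecules), at least 2 UMIs of Cd3d, Cd3e and Cd3g together, at least 2 UMIs of Trdc and Tcrg-C1 together, no Foxp3 UMI and less than 0.5% of its UMIs from Col1a1, Col1a2 and Col3a1. This gave 80 cells among 25430 that passed the gene and mitochondrial limits. Of these, 29 came from 14483 cells of the tail suspension (TS) library and 51 from 10947 cells of the non-tail suspension (NTS) library. The cells were thus chosen by their measured values of Cd3, Trdc, Tcrg-C1, Foxp3 and collagen genes, which are given only as a description.

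The study sampled the entheses of SKG mice, an inbred strain that carries a point mutation of the T cell kinase Zap70 and can develop T cell-driven arthritis. In tail suspension the hindlimbs are unloaded, and NTS mice were not suspended. The mutation is shared by both groups and bears on T cell receptor signalling itself. There was 1 library per group and no replicate. The number, age and sex of the animals and any induction of arthritis are not given in the sources used here. No test was therefore possible. Intervals are at the 95% level, come from exact counting formulas and leave out all error but that of counting, and a ratio describes these 2 libraries. The files held 166606774 UMIs in TS and 121868851 in NTS, with a median of 8508 and 4758 UMIs per cell that passed. The 29 TS cells held 181864 UMIs, with a median of 5460 per cell and a range of 1123 to 12519. The 51 NTS cells held 407503 UMIs, with a median of 7201 and a range of 3245 to 26075. In each library 47 barcodes were also present in the other one, and none of them was among the 80 cells.

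Gamma-delta T cells recognise antigen through a gamma and a delta chain in place of the alpha and beta chains of conventional T cells. In the mouse many of them leave the thymus already committed to making IL-17 or interferon-gamma. The IL-17-producing kind lives in barrier and connective tissues, entheses included, and answers IL-23 and IL-1 through the receptors Il23r and Il1r1. IL-17A drives neutrophil recruitment and acts on stromal cells, and the IL-23 and IL-17 axis is a drug target in spondyloarthritis.

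The constant genes that chose these cells are shown first, because gamma constant genes resemble each other. Trdc lies on chr14:54142851-54148868 (plus strand, GRCm38, GENCODE M21) and overlaps the antisense gene Gm43434 and, at its 3′ end, the variable segment Trdv5 on the opposite strand. Tcrg-C1 lies on chr13:19214103-19217024 (plus strand), Tcrg-C2 on chr13:19304649-19307551 (minus strand) and Tcrg-C4 on chr13:19344558-19352756 (plus strand). Each sequence below is the first 120 bases of exon 1, all of it coding, 5′ to 3′ in transcript direction from the GENCODE M21 transcripts. Capitals mark the bases of Tcrg-C2 and Tcrg-C4 that differ from Tcrg-C1.
Tcrg-C1, chr13:19214103-19214222, plus strand: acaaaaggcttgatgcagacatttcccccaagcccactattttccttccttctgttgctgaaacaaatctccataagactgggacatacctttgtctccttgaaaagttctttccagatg
Tcrg-C2, chr13:19307432-19307551, minus strand: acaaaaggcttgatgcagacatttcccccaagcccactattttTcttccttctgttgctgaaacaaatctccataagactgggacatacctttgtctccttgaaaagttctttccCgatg
Tcrg-C4, chr13:19344558-19344677, plus strand: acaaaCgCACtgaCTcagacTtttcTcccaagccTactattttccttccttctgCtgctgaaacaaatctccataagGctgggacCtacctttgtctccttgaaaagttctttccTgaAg
Trdc, chr14:54142851-54142970, plus strand: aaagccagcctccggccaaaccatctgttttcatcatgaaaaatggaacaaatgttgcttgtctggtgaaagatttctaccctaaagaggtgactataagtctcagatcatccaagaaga

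In this stretch Tcrg-C2 differed from Tcrg-C1 at 2 bases and Tcrg-C4 at 14. Over the whole 330 bases of exon 1, Tcrg-C1 was 97.27% identical to Tcrg-C2, 96.06% to Tcrg-C3 and 82.12% to Tcrg-C4. The longest identical run between transcripts was 104 bases for Tcrg-C1 and Tcrg-C2 and 122 bases for Tcrg-C1 and Tcrg-C3. Counts of these gamma constant genes are therefore uncertain to the extent that reads fell in such runs. Trdc has no such copy among these genes.

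The chain counts went against the name gamma-delta for most of these cells. Trdc was detected in 10 of the 29 TS cells (34.5%, interval 17.9 to 54.3) and in 15 of the 51 NTS cells (29.4%, 17.5 to 43.8). The other 19 TS and 36 NTS cells had been taken on Tcrg-C1 alone. Only 5 cells in TS and 5 in NTS held UMIs of both genes. All 29 TS cells and 50 of the 51 NTS cells held at least 2 UMIs of the alpha and beta chain constant genes Trac, Trbc1 and Trbc2 together. All 10 TS and 14 of the 15 NTS cells with Trdc were among them, so this sum did not separate cells with and without Trdc. For Trac alone, 16 of the 29 TS and 31 of the 51 NTS cells held at least 2 UMIs. Among cells with Trdc these were 4 of 10 in TS and 0 of 15 in NTS. Because of this the cells are called T cells with Trdc or Tcrg-C1 UMIs below, and the split by Trdc was made after these values were seen.

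Trac, the alpha chain constant gene, was lower in the cells with Trdc, with shares whose intervals overlapped in TS and did not in NTS. In TS the 10 cells with Trdc held 15 Trac UMIs, at most 4 per cell and in 7 cells, and the 19 cells without Trdc held 56, with a median of 3 and a Trac UMI in 15 cells. In NTS the 15 cells with Trdc held 4 Trac UMIs, at most 1 per cell and in 4 cells, and the 36 cells without Trdc held 233, with a median of 6 and a Trac UMI in 35 cells. Cd4, the helper co-receptor, was found in 2 of the 10 TS and 1 of the 15 NTS cells with Trdc, against 8 of the 19 and 15 of the 36 cells without it. Trbc2, a beta chain constant gene, was found in most cells on both sides of the split, with lower medians in those with Trdc. It was found in 9 of the 10 TS and 14 of the 15 NTS cells with Trdc, with medians of 3.5 and 5 UMIs, and in 18 of the 19 TS and all 36 NTS cells without it, with medians of 5 and 8 UMIs.

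**Figure D1:**
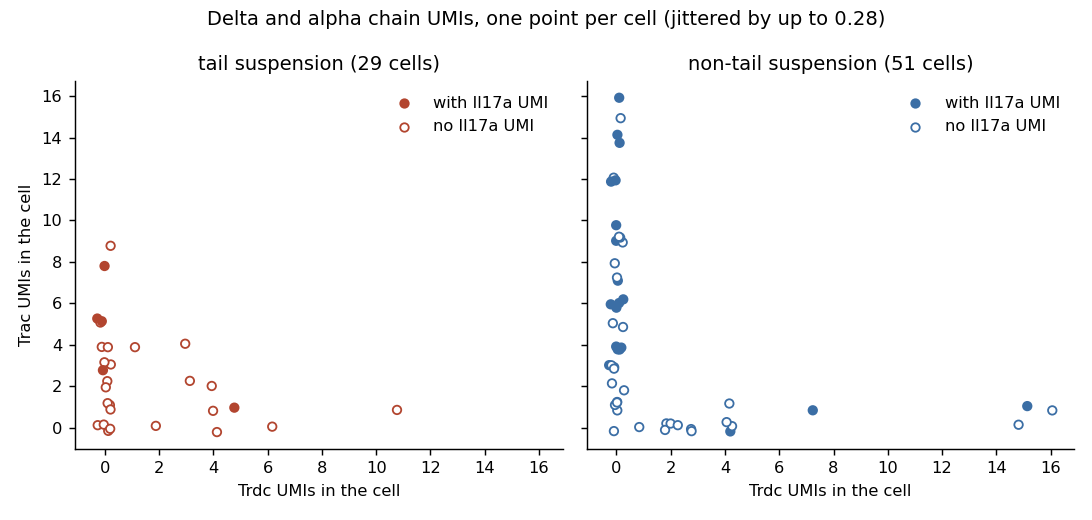
UMIs of Trdc (x axis) and Trac (y axis) in each of the 29 TS cells (left) and 51 NTS cells (right), with points shifted by up to 0.28 so that they can be told apart; filled points are cells with an Il17a UMI. In NTS the cells with Trdc lie along the bottom, with at most 1 Trac UMI, and cells without Trdc reach 16. In TS the cells with Trdc reach 4 Trac UMIs, above the median of 3 in those without Trdc, which reach 9.

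Among the cells with Trdc, the UMIs per cell were 11, 6, 5, 4, 4, 4, 3, 3, 2 and 1 in TS. In NTS they were 16, 15, 15 and 7, then 4 in 4 cells, 3 in 2 cells, 2 in 4 cells and 1 in 1 cell. Trdc summed over all members was at 236 CPM (counts per 1000000 UMIs, 171 to 318) in TS and 206 CPM (164 to 255) in NTS. Tcrg-C1 in the cells without Trdc had a median of 2 UMIs, the minimum that the rule allowed, in both libraries, and a maximum of 17 in TS and 9 in NTS. Tcrg-C2 was found in 8 TS cells (25 UMIs) and 18 NTS cells (66 UMIs). Tcrg-C4 was found in 5 TS and 8 NTS cells and the variable segment Trgv2 in 9 TS and 10 NTS cells. Tcrg-V6, the segment of the IL-17-committed foetal-type gamma-delta T cells of the mouse, had 0 UMIs in TS and 1 in NTS. Other variable segments were rarely counted as well, with 3 and 0 UMIs of Tcrg-V1 and 1 and 3 of Tcrg-V4. The absence of foetal-type cells cannot be read from such counts.

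Trdc was not particular to T cells in either library. The members held 4.44% of the 969 Trdc UMIs in TS and 15.8% of the 530 in NTS, against 70 of the 140 Tcrg-C1 UMIs in TS and 122 of the 204 in NTS. Of the cells with Trdc, 451 of 517 in TS and 185 of 228 in NTS had no Cd3 UMI. Cells with at least 2% of UMIs from the 3 collagen genes and neither Cd3 nor Ptprc, which are fibroblast-like, held 295 Trdc UMIs in TS and 125 in NTS. Their Trdc level was 8.31 CPM (7.39 to 9.31) in TS and 3.57 CPM (2.97 to 4.25) in NTS. A Trdc UMI was found in 6.53% of 2143 such cells in TS and 5.99% of 1352 in NTS, at median depths of 14294 and 24202.5 UMIs. Thinned to 1000 UMIs per cell, the shares were 0.631% in TS and 0.226% in NTS, against 10.3% and 13.7% of the members. B-like cells, with at least 3 UMIs of Cd79a, Cd79b and Ms4a1, held Trdc in 0 of 305 cells in TS, where 3 counts would be a share of 0.984% of cells with a UMI, and in 1 of 113 in NTS. Tcrg-C1 in the fibroblast-like cells amounted to 0 UMIs in TS and 1 in NTS. The rule also left out T cells with Foxp3, and 1 of these in NTS held 49 Trdc UMIs, more than any member.

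**Figure D2:**
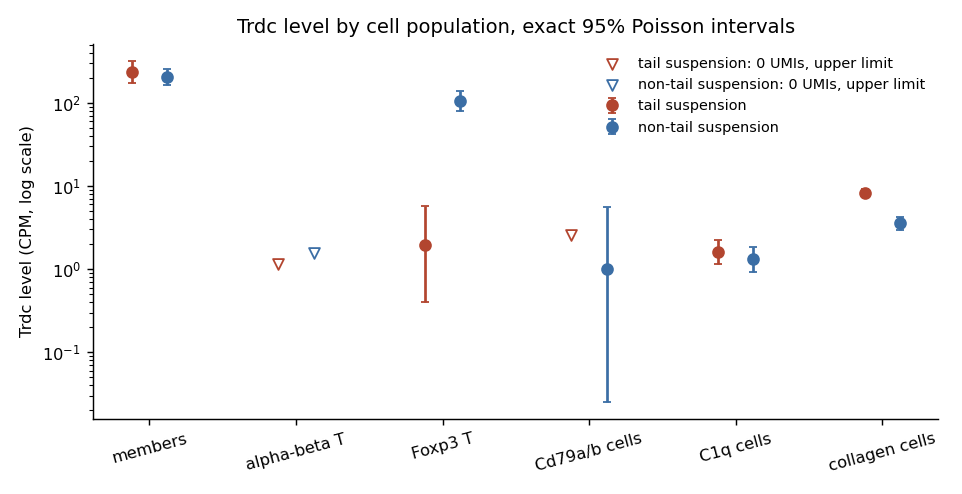
Trdc level in CPM on a log scale in the members, in alpha-beta T cells, T cells with Foxp3, cells with Cd79a, Cd79b or Ms4a1 (at least 3 UMIs), cells with C1q genes (at least 3 UMIs) and cells with at least 2% collagen UMIs, TS left of NTS; bars are exact 95% Poisson intervals and open triangles are upper limits where no UMI was counted. Members lie at 236 and 206 CPM, alpha-beta T cells at 0 by definition and the collagen cells at 8.31 and 3.57 CPM.

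The threshold of 2 UMIs cut through a continuum of Tcrg-C1 counts. Just outside it, 44 TS and 61 NTS T cells without Foxp3 held exactly 1 UMI of Trdc and Tcrg-C1 together, and just inside it 13 TS and 26 NTS cells held exactly 2. At 3 or more UMIs there were 16 TS and 25 NTS cells. Il17a was at 13.4 CPM in the TS cells just outside, 314 CPM in those with 2 UMIs and 295 CPM in those with 3 or more. It was found in 3 of 44, 2 of 13 and 3 of 16 of these cells. A single cell held 21 Il17a UMIs at 2 UMIs, and another held 29 at 3 or more. In NTS the same levels were 351, 615 and 504 CPM, from 17 of 61, 9 of 26 and 11 of 25 cells. A single NTS cell with 2 UMIs held 70 Il17a UMIs. The TS and NTS steps in Il17a at the threshold thus rest on few cells. Trac was at 402, 491 and 322 CPM in TS and at 623, 663 and 513 CPM in NTS.

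Members were 2.75% (1.85 to 3.92) of the 1056 T cells with low collagen in TS and 6.27% (4.71 to 8.17) of the 813 in NTS. These intervals did not overlap. Of all cells that passed, they were 0.200% (0.134 to 0.287) in TS and 0.466% (0.347 to 0.612) in NTS. Among cells with a UMI of the pan-leukocyte gene Ptprc, the shares were 0.407% (0.268 to 0.591) in TS and 0.576% (0.422 to 0.767) in NTS, and these intervals overlapped. The cells with a Trdc UMI made up 0.947% (0.455 to 1.73) of T cells in TS and 1.85% (1.04 to 3.02) in NTS, also with overlapping intervals. The T cells in these shares include 203 TS and 72 NTS cells with Foxp3, which the rule bars from the members. Depth per member was lower in TS, at a median of 5460 UMIs against 7201 in NTS, and a rule on 2 UMIs depends on depth. The part of the Foxp3 cells and of depth in the shares was not tested.

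Il17a, which encodes IL-17A, was carried by a smaller share of cells in TS, in the members and also in alpha-beta T cells (values in the next paragraph). It lies on chr1:20730905-20734496 (plus strand, GRCm38). Il17a was found in 5 of 29 TS cells (17.2%, 5.85 to 35.8), with 29, 21, 2, 2 and 1 UMIs, and in 20 of 51 NTS cells (39.2%, 25.8 to 53.9), with 1 to 70 UMIs. The intervals overlapped. Thinned to 1000 UMIs per cell, the shares were 10.3% in TS and 21.6% in NTS. Its level was 302 CPM in TS and 555 CPM in NTS, a log2 ratio of -0.87 (-1.33 to -0.44). It was -1.88 without the TS cell with 29 UMIs and -0.37 (-0.84 to 0.09) without the NTS cell with 70. In fibroblast-like cells, which should lack the gene, a UMI was found in 0.0467% of cells in TS and 0.222% in NTS.

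Most of this Il17a came from cells without Trdc. They held 54 of the 55 Il17a UMIs in TS and 192 of the 226 in NTS, where 1 cell with Trdc held 27 of the other 34. Il17f, the neighbouring and related cytokine gene, had 29 UMIs in 6 TS cells and 28 UMIs in 9 NTS cells, or 159 and 68.7 CPM. Of the TS UMIs 13 were in 1 cell, without which the log2 ratio of 1.21 was 0.39 (-0.59 to 1.33). Il17a or Il17f was found in 9 of 29 TS members (31.0%, 15.3 to 50.8) and 24 of 51 NTS members (47.1%, 32.9 to 61.5). In alpha-beta T cells, taken with the same filters, no UMI of Trdc or Tcrg-C1 and at least 2 of Trac, Trbc1 and Trbc2, it was found in 86 of 513 TS cells (16.8%, 13.6 to 20.3) and 127 of 349 NTS cells (36.4%, 31.3 to 41.7). Il22, the epithelial repair cytokine, had 18 UMIs in TS, 15 of them in 1 cell, and 3 in NTS. Ifng, encoding interferon-gamma, had 1 UMI in TS and 37 in NTS, 17 of them in 1 cell. Its log2 ratio was -4.05 in members and -4.02 in alpha-beta T cells.

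**Figure D3:**
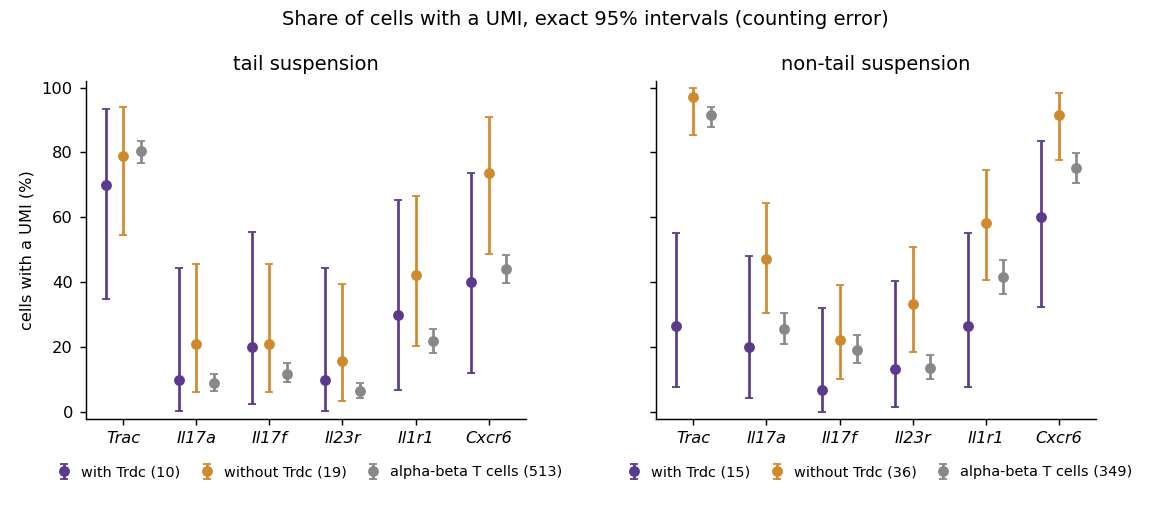
Percent of cells with at least 1 UMI of 6 genes in members with Trdc, members without Trdc and alpha-beta T cells, TS panel left of NTS panel, with exact 95% intervals; numbers in the legend are cells. Trac in NTS was found in 26.7% of members with Trdc and 97.2% without, and Il17a in 3 of 15 and 17 of 36 cells; most intervals of the members overlap.

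Genes of the type 17 programme were mostly higher in the members than in the alpha-beta T cells of the same library. Of 25 measured genes (at least 20 UMIs over the members of both libraries), 24 were higher in TS and 20 in NTS, with median log2 ratios of 0.67 and 0.35. Of all 4028 measured genes, 58.3% were higher in TS and 57.6% in NTS, with medians of 0.09 and 0.06. The minimum of UMIs counted members alone, which favours genes that are high in them, and the other 12 of the 37 type 17 genes fell below it. Il1r1, the IL-1 receptor, was at 126 CPM in TS members and 51.3 CPM in TS alpha-beta T cells, and at 142 and 107 CPM in NTS. Il1r1 is not a T cell gene alone, with a UMI in 66.3% of TS and 75.9% of NTS fibroblast-like cells. Il23r had 4 UMIs in 4 TS members and 18 UMIs in 14 NTS members, levels of 22 and 44.2 CPM against 13.3 and 24.7 CPM in alpha-beta T cells. Actn2, a muscle-type alpha-actinin found in IL-17-producing gamma-delta T cells of the mouse, was at 291 CPM in TS members and 95.4 CPM in TS alpha-beta T cells, and at 373 and 197 CPM in NTS. 5830411N06Rik, a scavenger receptor of mouse gamma-delta T cells also called Scart2, had 15 UMIs in 4 TS members and 57 UMIs in 11 NTS members. In NTS, 33 of its 57 UMIs and 14 of the 16 UMIs of Blk, a kinase of IL-17-producing gamma-delta T cells in the mouse, were in the 15 cells with Trdc. TS went the other way: the 10 cells with Trdc held 2 of the 15 UMIs of 5830411N06Rik and 0 of the 3 UMIs of Blk.

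A few members carried cytotoxic genes. Gzma, encoding granzyme A, was in 3 TS cells (29, 26 and 1 UMIs) and 3 NTS cells (82, 34 and 2 UMIs). All 3 NTS cells and 1 of the TS cells held Trdc. A UMI of Gzma, Klrd1, Ncr1 or Eomes, genes of killer lymphocytes, was found in 6 of the 10 TS and 6 of the 15 NTS cells with Trdc, against 6 of the 19 and 6 of the 36 cells without it. Among all members these were 12 of 29 in TS and 12 of 51 in NTS, beside 116 of 513 and 75 of 349 alpha-beta T cells. Ncr1 had 5 UMIs in TS and 15 in NTS, and the NK cell marker list summed to 121 and 130 CPM in the members, against 16.7 and 29.7 CPM in alpha-beta T cells. Of its 7 genes, Klra8 and Klra4 were at 0 in TS and Klra8 in NTS. The part of killer cells that are not T cells in the cells with Trdc was not tested.

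Few genes lay 2-fold apart between members and alpha-beta T cells in both libraries. Of 8154 genes with at least 20 UMIs over both cell sets in each library, 38 (0.466%) were at least 2-fold higher in members in both libraries and 192 (2.35%) at least 2-fold lower. Among the named genes that were higher, Tcrg-C2 had log2 ratios of 3.51 in TS and 2.47 in NTS. Its exon 1 is 97.27% identical to that of Tcrg-C1, which helped to choose the members and was barred from the alpha-beta T cells. The Tcrg-C2 ratios are thus not independent of the choice of cells and are given only as a description. Gzma had 2.83 and 1.24, from the few cells above. Pdcd1, encoding the inhibitory receptor PD-1, was at 132 CPM in TS members and 40.8 CPM in TS alpha-beta T cells, and at 226 and 105 CPM in NTS. It was found in 13 of 29 TS and 30 of 51 NTS members. Ltb4r1, the receptor for leukotriene B4, was at 121 CPM in TS members against 63.6 CPM, and at 307 CPM in NTS members against 119 CPM. Dut, which removes dUTP, Ero1l, an oxidase of the endoplasmic reticulum, Cyb5a, Tm2d2 and Ugcg had log2 ratios between 0.70 and 1.09 in both libraries. Ero1l, Cyb5a and Ugcg were thus below 2-fold in both, and the interval of Ugcg in TS reached from -0.06 to 1.38.

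The 10 named genes that were lower in members include lysosomal and secreted proteins. Ctsl, a lysosomal protease, was at 55.0 CPM in TS members and 437 CPM in TS alpha-beta T cells, and at 51.5 and 403 CPM in NTS. The proteases Lgmn and Ctsc, the chemokines Ccl6 and Cxcl1, the tetraspanin Cd63, the acute phase protein Saa3, and Ier3, Ifitm3 and Grn were lower as well, with log2 ratios between -3.55 and -1.12. The 14 monocyte and macrophage markers summed to 511 CPM in TS members against 2703 CPM in TS alpha-beta T cells, and to 827 against 6799 CPM in NTS. In each library 13 of the 14 were found in members, with Fcgr1 at 0 in TS and Adgre1 at 0 in NTS. Their part in these ratios was not tested.

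The comparison of TS with NTS asks how the T cells of the unloaded enthesis differed from those of the enthesis that was not unloaded. In members, 273 of 4028 measured genes (6.78%) were at least 2-fold higher in TS and 423 (10.5%) at least 2-fold lower, with a median log2 ratio of -0.12 over all of them. In alpha-beta T cells the median was -0.16 over the 4025 of these genes with a value, of which 100 were at least 2-fold higher in TS and 214 at least 2-fold lower. The members were far fewer cells and their ratios carry more counting error. Both cell sets come from the same 2 libraries, so the values of alpha-beta T cells stand beside those of the members below as a description.

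**Figure D4:**
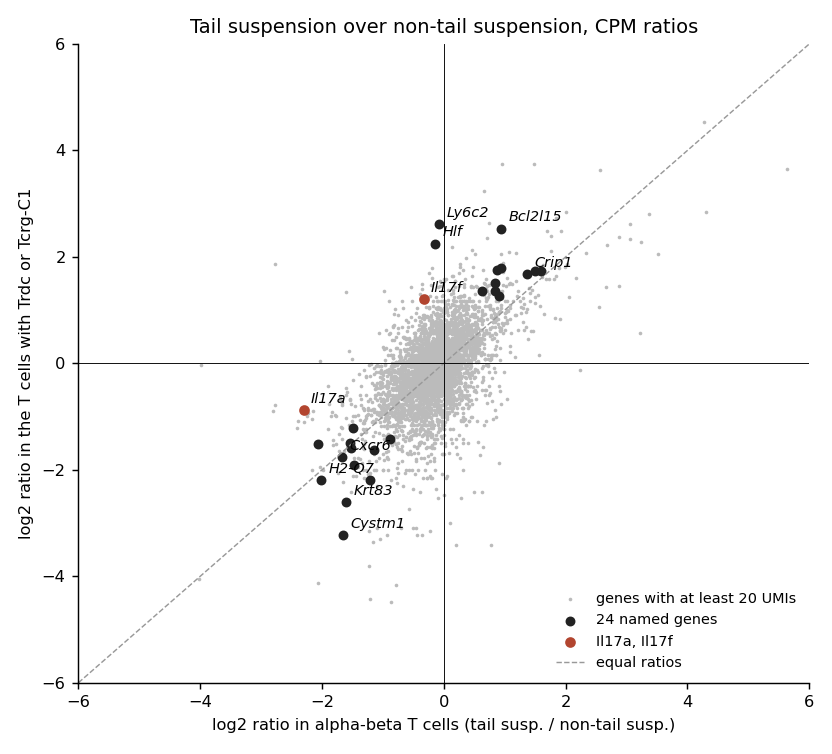
Log2 ratio of TS over NTS in alpha-beta T cells (x axis) and in members (y axis) for genes with at least 20 UMIs in members; black points are the 24 named genes, red points Il17a and Il17f, and the dashed line marks equal ratios; 4 genes lie outside the axes. Crip1 (1.67 in members, 1.36 in alpha-beta T cells) and Cxcr6 (-1.76 and -1.66) lie near the dashed line, while Ly6c2 and Hlf were higher in TS members (2.62 and 2.25) and near 0 in alpha-beta T cells (-0.08 and -0.14).

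The 12 named genes that were higher in TS include several that differed across the whole library. Crip1, a zinc-binding LIM protein, was at 8979 CPM in TS and 2812 CPM in NTS, in alpha-beta T cells at 9304 and 3621 CPM, and over all cells at 8273 and 1856 CPM. Atp5k, Atp5mpl and Ndufa5, subunits of the respiratory chain and ATP synthase, Bola2, Dhx15, Eif2s2, Samsn1 and Flna had log2 ratios between 1.27 and 1.80 in members and between 0.62 and 1.59 in alpha-beta T cells. Over all cells Samsn1 was lower in TS, with a log2 ratio of -0.65, and the others of these lay between 0.73 and 1.56. Bcl2l15, a BCL2 family member, was at 341 CPM (261 to 437) in TS and 58.9 CPM (37.7 to 87.6) in NTS, a log2 ratio of 2.53 (1.83 to 3.28), against 0.94 in alpha-beta T cells. It was found in 15 of 29 TS and 14 of 51 NTS cells. Its TS level came from the cells without Trdc, at 505 CPM, and the 10 TS cells with Trdc were at 31.7 CPM. Among cells with a Trdc UMI the ratio was -0.65.

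Hlf, a clock-controlled transcription factor, was at 280 CPM (209 to 369) in TS and 58.9 CPM (37.7 to 87.6) in NTS, and at 92.9 and 103 CPM in alpha-beta T cells. Of its 51 TS UMIs, 23 were in 1 cell, without which the log2 ratio of 2.25 was 1.49 (0.65 to 2.34). Ly6c2, a surface protein of memory T cells and monocytes, was at 181 CPM in TS and 29.4 CPM in NTS members. It was found in 6 of 29 TS and 3 of 51 NTS cells, with 14 of the 33 TS UMIs in 1 cell, without which the log2 ratio of 2.62 was 1.91 (0.79 to 3.09). Alpha-beta T cells held it at 156 and 164 CPM. The difference between the members and the alpha-beta T cells was not tested for either gene.

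Of the 12 named genes that were lower in TS, Cxcr6 marks tissue-resident T cells and binds CXCL16. It was found in 18 of 29 TS cells, at 275 CPM (204 to 362), and in 42 of 51 NTS cells, at 930 CPM (839 to 1029). The log2 ratio was -1.76 (-2.21 to -1.33), and alpha-beta T cells were at 176 and 559 CPM. Cystm1, a small membrane protein, had 3 UMIs in 2 TS cells and 63 UMIs in 21 NTS cells, with a log2 ratio of -3.23 against -1.65 in alpha-beta T cells and 1.41 over all cells. Ly6a, an interferon-inducible surface antigen, was at 440 and 1315 CPM, with a log2 ratio of -1.58 in members and -1.52 in alpha-beta T cells. Jund, an AP-1 subunit, had -1.5 and -1.55. Ckb, the cytosolic creatine kinase, Plaat3 and Krt83 had ratios between -2.61 and -1.90 in members.

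MHC class I and peptide loading genes were lower in TS. Of 16 measured genes, all 16 had a negative log2 ratio and 10 were past 2-fold, against 57.3% and 10.5% of all measured genes, with a median of -1.15 against -0.12 over all genes and -1.40 for the same genes in alpha-beta T cells. H2-D1, a classical class I heavy chain, was at 3261 CPM in TS and 7607 CPM in NTS, a log2 ratio of -1.22 (-1.35 to -1.10). H2-Q7 and H2-T23, non-classical class I genes, had -2.19 and -1.51, and B2m, the shared light chain, had -0.38 (-0.52 to -0.23). Psmb8 and Psmb9, subunits of the immunoproteasome, had -1.24 and -1.63. Some H2 genes resemble each other, and reads shared among them could be split in counting. Of 18 measured interferon-inducible genes, 2 were higher and 16 lower, 6 of them past 2-fold, against the same 57.3% and 10.5% of all genes, with a median of -0.78 in members and -1.15 in alpha-beta T cells. Ly6e had -0.92 (-1.24 to -0.61). H2-D1 was lower over the whole library too, with a log2 ratio of -1.89 over all cells.

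Among type 17 genes, 9 were higher and 16 lower in TS, with a median of -0.73 in members and -0.90 in alpha-beta T cells. Beside this list and those below, 57.3% of all measured genes were lower in TS members, with a median of -0.12. Ramp1, a subunit of the receptor for the neuropeptide CGRP, was at 825 CPM in TS and 1612 CPM in NTS. Tmem176a and Tmem176b, ion channel-like membrane proteins, had log2 ratios of -0.87 and -0.96. Aqp3, a water and glycerol channel, was in 6.90% of TS and 43.1% of NTS cells, with 4 and 39 UMIs. Maf, a transcription factor needed by IL-17-producing gamma-delta T cells in the mouse, had 78 UMIs in each library and a log2 ratio of 1.16 (0.69 to 1.64). Of 14 secreted cytokines and chemokines, 6 were higher and 8 lower, with a median of -0.28. Ltb, a lymphotoxin subunit, was at 572 and 1271 CPM. Tnfsf11, encoding the osteoclast factor RANKL, had 1 UMI in TS and 39 in NTS, 22 of them in 1 cell, against 38.3 and 160 CPM in alpha-beta T cells. Ccl5 was at 885 CPM in TS and 452 CPM in NTS, from 6 of 29 and 7 of 51 cells. Its log2 ratio of 0.97 turned to -0.12 among cells with a Trdc UMI and to -0.10 at 2000 UMIs per cell. Of 22 type 1 and cytotoxic genes, 9 were higher and 13 lower, with a median of -0.14 that turned to 0.10 at 1000 UMIs per cell.

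Receptors and homing genes showed a similar balance, beside 57.3% of all measured genes that were lower in TS. Of 20 cytokine receptors 8 were higher and 12 lower (median -0.44), and of 22 homing and residence genes 7 were higher and 15 lower (median -0.44). Il1r2, the decoy IL-1 receptor, was at 181 CPM in TS and 491 CPM in NTS, a log2 ratio of -1.44 (-2.01 to -0.90) that turned to 0.76 among cells with a Trdc UMI. Rgs1, a brake on chemokine receptors, had -1.12 (-1.45 to -0.81). Of 23 T cell receptor signalling genes, 9 were higher and 14 lower (median -0.33), with Zap70 at 104 and 155 CPM, a log2 ratio of -0.57 (-1.39 to 0.19). Of 20 activation genes, 6 were higher and 14 lower (median -0.32), with Tnfrsf18, encoding GITR, at 1.20 (0.58 to 1.81). The 4 syndecans had 1 measured gene, Sdc4, at -0.63 with 13 UMIs in TS and 45 in NTS.

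Glycolysis and hypoxia genes were lower in TS members in 17 of 18 cases, 9 of them past 2-fold, against 57.3% and 10.5% of all measured genes, with a median log2 ratio of -1.09 against -0.82 in alpha-beta T cells. Pkm, pyruvate kinase, was at 242 CPM in TS and 771 CPM in NTS, Aldoa, aldolase, at 275 and 739 CPM, and Pgam1 at 126 and 390 CPM. Hk2, hexokinase 2, was the exception at 1.58 (0.54 to 2.65). Among immediate-early genes 8 were higher and 20 lower in TS, and the median was -0.67 against -0.30 in alpha-beta T cells. Junb had -1.01 (-1.23 to -0.80), while Fos had 0.46 (-0.03 to 0.93). Of 8 heat shock and dissociation genes, 5 were higher and 3 lower, with a median of 0.04.

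The remaining lists stand beside the same 57.3% of all measured genes that were lower in TS, with a median of -0.12. Of 30 nuclear oxidative phosphorylation genes, 17 were higher and 13 lower (median 0.03). Of 19 NF-kB targets, 4 were higher and 15 lower (median -0.37). Of 17 cell cycle genes, 9 were higher and 8 lower (median 0.29). Of 15 survival genes, 4 were higher and 11 lower (median -0.37). Of 12 glucocorticoid-responsive genes, 6 were higher and 6 lower (median -0.05, or 0.05 with totals that leave out mitochondrial and ribosomal protein genes), and of 7 circadian genes, 3 and 4 (median -0.13). Lipid handling genes had 1 higher and 6 lower (median -0.92). The 3 measured gamma chain genes other than Tcrg-C1, Tcrg-C2, Tcrg-C4 and Trgv2, had log2 ratios of -0.24, 1.04 and 1.25. Ribosomal protein genes took 263235 CPM in TS and 210953 CPM in NTS members, 269586 and 189977 CPM in alpha-beta T cells, and 156861 and 114195 CPM over all cells.

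**Figure D5:**
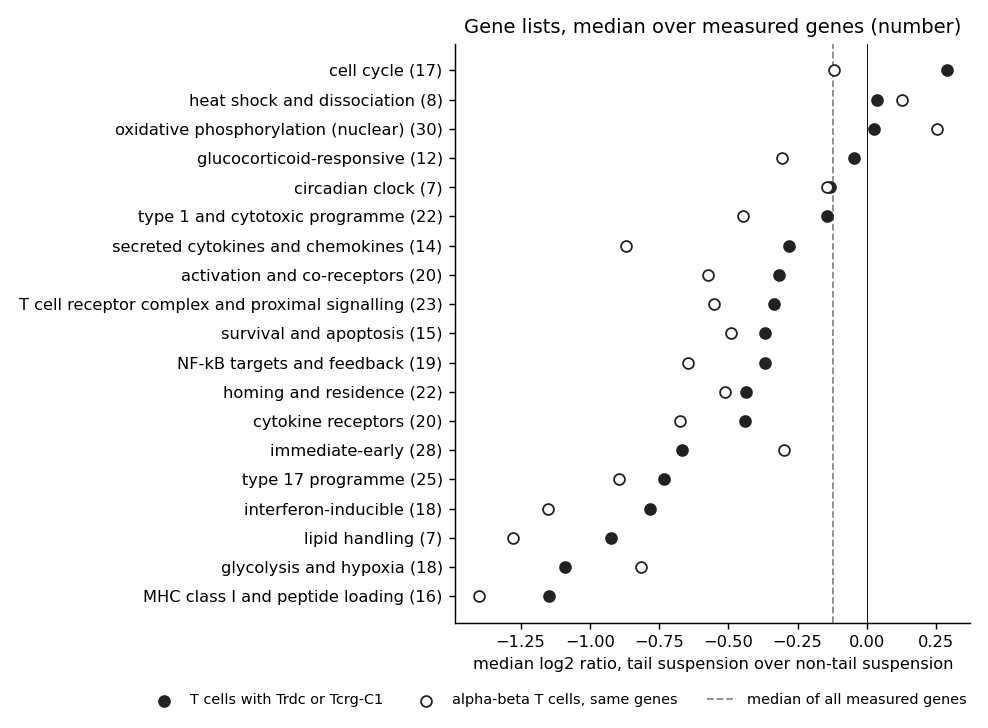
Median log2 ratio of TS over NTS for each gene list with at least 7 measured genes (number in brackets), in members (filled) and for the same genes in alpha-beta T cells (open); the dashed line is the median of all measured genes, -0.12. MHC class I genes lie lowest at -1.15 in members and -1.40 in alpha-beta T cells, and the cell cycle list lies highest in members at 0.29.

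Transcripts of other cell types were present in the members and differed between libraries. Fibroblast and tendon markers summed to 3151 CPM in TS members and 1055 CPM in NTS members, with 15 of 17 markers found in TS and all 17 in NTS. Prg4, the joint lubricant lubricin, was found in 96.6% of TS and 45.1% of NTS members, at 1050 and 83.4 CPM, and was at 4280 and 86.3 CPM in alpha-beta T cells. Neutrophil markers summed to 6054 CPM in TS, with 11 of 14 found, and 1794 CPM in NTS, with 13 of 14 found; Ltf was at 0 in both. In TS 1 cell drew 12.5% of its UMIs from them. Erythroid markers summed to 7836 CPM in TS, with 15.1% of the UMIs of 1 cell, and 0 in NTS, where 3 UMIs would be 7.36 CPM. Dendritic cell markers summed to 126 CPM in TS, with 4 of 10 found, and 2481 CPM in NTS, with 8 of 10 found and 3.50% of the UMIs of 1 cell. B cell markers were at 66.0 and 24.5 CPM, with Cd79a and Ms4a1 at 0 in both. In all, 2 TS and 3 NTS members drew over 1% of their UMIs from the markers of another blood or skin cell type. Without them 254 of 3660 measured genes (6.94%) were at least 2-fold higher in TS and 355 (9.70%) at least 2-fold lower. The shares over all members were 6.78% and 10.5%. The part of these transcripts in the ratios was not tested.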

How the data were processed

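Per the labels' protocols, enthesis tissue was digested with collagenase, strained, lysed of red cells, depleted of dead cells and run on the 10x Genomics platform. The authors deposited UMI counts for each gene in each barcode, made with Cell Ranger 5.0.1 on GRCm38 according to the submitters' processing notes. Of 32285 gene IDs, 32158 matched GENCODE M21.

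Raw counts were summed per library and cell set and scaled to CPM. Shares have Clopper-Pearson, levels Poisson and ratios conditional binomial intervals (95%); a count of 0 was set to 3 UMIs in ratios. Members, lists and rules were chosen with earlier results of these data known. Named genes needed 40 UMIs and, where higher, 100 CPM, 10% of cells and a level not below that of all cells. Technical genes, receptor segments and markers of other cell types were left out. The 12 per direction whose interval stayed farthest from 0 were taken, if the sign held at 1000 UMIs per cell and under median-of-ratios scaling. Against alpha-beta T cells, the 10 per direction with the largest smaller ratio were taken. Genes of the 21 lists were named besides.

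Scrublet (scanpy 1.11.5) called 492 doublets in TS (3.40%, 12.4% expected), 1 of them a member, and 0 in NTS, where it did not work; no cell was removed. Of 23 alternatives, 5 were chosen after seeing the data. Ratios and intervals were tested on simulated data (Python 3.11.15). The simulated counts were independent for each gene and had no cells, so UMIs gathered in 1 cell were not covered. Some genes are not reported here.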

Additional observations from a re-analysis of the deposited data

Results flagged for a closer look

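Trdc UMIs appeared outside T cells, in fibroblast-like cells that the comparisons do not use: 295 UMIs in TS and 125 in NTS, above the limit that a count of 0 allows. For 9 genes, all from the gene lists, members and alpha-beta T cells lay on opposite sides of 0 in TS over NTS. Each had an interval that leaves out 0 in both. The difference itself was not tested for any of the 9, and no such share over all measured genes is given. Without regard to intervals, 224 of the 273 genes at least 2-fold higher in TS members had the same sign in alpha-beta T cells. Of the 423 at least 2-fold lower, 373 did. In members, Il17f was at a log2 ratio of 1.21, against -0.33 in alpha-beta T cells, and at 0.39 without the TS cell with most Il17f UMIs. Leaving out each gene's own top TS cell gave the following values besides. Xcl1, a chemokine, was at 1.16 against -0.53, and at 0.55 without that cell. Tnf was at 1.16 against -0.91, and at 0.31 without it. Tnfsf8 was at 0.70 against -0.84, and at 0.32 without it. Rgs2 was at 0.51 against -0.47, and at 0.37 without it. Grap2, an adaptor of receptor signalling, was at 0.88 against -0.28, and at 0.62 without it. Mki67 and Top2a, genes of dividing cells, were at 0.92 and 0.73, against -0.83 and -0.31, and at 0.15 and 0.025 without it. Of these 8 genes, all but Grap2 then had an interval that included 0. Egr1, an immediate-early gene, was at -0.88 against 0.83, and at -0.52 (-1.27 to 0.17) without the NTS cell with most of its UMIs.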

How the results depend on the processing

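No paired analysis was possible because each group is 1 library. The lower share of members in TS than in NTS, and of members with Il17a, kept its direction in each of the alternatives that gave a value. Values are given for TS, then NTS. With at least 3 UMIs of Trdc and Tcrg-C1, members were 1.52% and 3.07% of T cells and 0.110% and 0.228% of cells that passed. With a UMI of each gene (5 cells per library) they were 0.473% and 0.615%, and 0.0345% and 0.0457%, and Il17a was in 0% of TS members. Leaving out cells with 2 or more alpha-beta chain UMIs left 0% in TS and 0.123% of T cells and 0.0091% of cells that passed in NTS, and no expression value. Cells with Trdc, a split chosen after seeing the data like the next one, were 0.947% and 1.84% of T cells and 0.0690% and 0.137% of cells that passed, with Il17a in 20% of those in NTS. Cells without Trdc were 1.80% and 4.43%, and 0.131% and 0.329%. At 1000 genes or more, members were 0.707% of the cells that passed in NTS.

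The numbers of genes at least 2-fold higher and lower in TS were 48 and 84 at 1000 UMIs per cell, 88 and 162 at 2000, 74 and 133 with a minimum of 50 UMIs per gene, 1917 and 1083 with no minimum beyond 1 UMI, and 619 and 983 at 1.5-fold. With a UMI of each gene they were 72 and 114, in the cells with Trdc 82 and 199, and 178 were higher with at least 3 UMIs. The number of measured genes differed between most of these settings, so the counts are not shares of the same set. Genes over alpha-beta T cells numbered 72 with at least 3 UMIs, 242 with a UMI of each gene and 140 in the cells with Trdc; 73 were under them with a UMI of each gene. At 1000 UMIs per cell Il17a was in 21.6% of NTS members.

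Of 312 list medians under alternatives 16 changed sign, and of 621 values of single genes 12. These came from 9 of the 20 lists followed and 7 of the 35 single genes, each with at least 1 change of sign. Some alternatives, such as at least 500 genes or no shared barcodes, kept all 29 and 51 members and could change little. Leaving out the cell with most UMIs of a gene changed no sign. In the cells with Trdc, Bcl2l15 was at -0.65, Ccl5 at -0.12, Il1r2 at 0.76 and Trac at 2.58. In the cells without it, Tcrg-C2 was at 0.064 and the circadian, glucocorticoid and heat shock medians at 0.29, 0.095 and -0.25. With a UMI of each gene, Il17f was at -0.12, Il1r2 at 0.077, Trac at 2.05 and the receptor signalling median at 0.12. With at least 3 UMIs, Tcrg-C2 was at 0.60 and the glucocorticoid median at 0.12. At 1000 UMIs per cell Trac was at 0.0071, and the gamma and delta segment, cytokine and type 1 medians at -0.77, 0.068 and 0.10. At 2000, Ccl5 was at -0.10, Il23r at 0.45, and the circadian, survival and type 1 medians at 0.87, 0.017 and 0.064. The glucocorticoid median was at 0.017 without cells called by Scrublet, 0.043 at a collagen limit of 0.1% and 0.047 with totals that leave out mitochondrial and ribosomal protein genes. At that collagen limit the heat shock and oxidative phosphorylation medians were at -0.093 and -0.0034. The cause was not tested. Depth limits all of these values, since a measured gene may have as few as 20 UMIs over 29 and 51 cells.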
